A study of Mus musculus with 4 samples.

Results

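Plasmacytoid dendritic cells (pDC) were picked by their own transcripts from 4 single-cell RNA libraries, made from CT26 tumours and from the lymph nodes that drain them (TDLN). A cell barcode was kept if it had 200 genes or more and if no more than 10% of its UMIs (unique molecular identifiers, each standing for a captured transcript) were mitochondrial. A kept barcode was taken as a pDC with at least 2 UMIs of Siglech and at least 2 of Bst2, Tcf4 and Ccr9 together. It also had at most 2 UMIs of C1qa, C1qb and C1qc together, at most 1 of Cd3d, Cd3e and Cd3g together, at most 1 of Cd79a and at most 2 of Rhox5. These limits set aside macrophages, T cells, B cells and carcinoma cells. The rule found 206 pDC among 41777 kept barcodes, of 42163 in all. The tumour held 44 with NanoCa and 24 with mock treatment, and TDLN held 71 and 67.

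pDC are known for making type I interferon when Tlr7 or Tlr9 in their endosomes meets nucleic acid, a route that runs through Myd88 and Irf7. They depend on the transcription factor Tcf4, carry a large secretory apparatus, and keep MHC class II on their surface at a level below that of conventional dendritic cells (cDC). In tumours they have been described as weak interferon producers.

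The study compared immune cells of mice given NanoCa with those of mice given mock treatment. Going by the series title, NanoCa is a calcium crystal in a lipid particle meant to act through interferon beta, and CT26 is a mouse colon carcinoma line. All mice were female, 4 to 8 weeks old, and the labels give all 4 libraries the same batch date. Each tissue and treatment has 1 library, so nothing could be tested. Every interval below is a 95% interval of counting error alone, and a library cannot be told apart from its tissue or treatment. The cells were stained for CD45 and sorted, but the gate is not stated, and neither are the strain, the dose or the number of mice per library. The labels disagree in 1 place: the protocol text of every library names NanoCa, while the tag of the mock libraries reads no treatment. Each ratio of NanoCa to mock therefore rests on the sample names and tags.

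Tumour libraries held 148121144 to 167924801 UMIs over 9404 to 11287 barcodes, and TDLN libraries 74909974 to 106579362 over 10400 to 11072. Any pair of libraries shared 121 to 183 barcode sequences. The tumour libraries were the deeper ones, but their pDC were the shallower. A tumour pDC had a median of 3350.5 UMIs with NanoCa and 3927 with mock, and a TDLN pDC 8379 and 8233. Other classes were also shallower in the tumour: median UMIs of cDC were 6781.5 and 8423 there against 12918 and 12998.5 in TDLN. The summed pDC counts behind each level below were 161688 UMIs in tumour NanoCa, 110214 in tumour mock, 579225 in TDLN NanoCa and 545188 in TDLN mock. Levels are given as CPM, the UMIs of a gene per 1000000 UMIs of these sums.

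The label was checked on genes that the rule did not use, though they were measured in the same cells and so describe rather than test it. The kallikrein gene Klk1, a marker of mouse pDC, stood at 3853 CPM in tumour NanoCa, 3439 in tumour mock, 2793 in TDLN NanoCa and 3001 in TDLN mock. Gated cDC held it at 0, 0, 2.46 and 0 CPM. Klk1 was found in 39 of 44, 19 of 24, 69 of 71 and 65 of 67 pDC, so most members carried it and it was near absent from cDC. Cox6a2, a muscle-type subunit of cytochrome oxidase that mouse pDC are known to express, was at 1682, 1334, 1764 and 1944 CPM. Irf8, the transcription factor of dendritic cell and pDC identity, was at 2047, 1651, 1644 and 1610.5 CPM. It was not confined to pDC: barcodes without a Siglech UMI that met every other limit held it at 64.0, 76.0, 607 and 437 CPM. The receptor chain gene Cd300c, the kallikreins Klk1b27 and Klk4, the template-free DNA polymerase gene Dntt, the calcium pump gene Atp2a1 and the glutamate receptor gene Grm8 were among the 15 genes with the highest level in pDC over all other kept barcodes. Their lowest ratio over the 4 libraries was 410.0-fold for Cd300c, 344-fold for Klk1, 217-fold for Dntt, 202-fold for Atp2a1 and 185-fold for Grm8. Among the rule's own genes Siglech was at 1490.5, 1588, 2136 and 2118.5 CPM in pDC and at 1, 0, 6 and 4 CPM in the other barcodes, which gives the size of the selection and no more. Bst2, which interferon induces in many cells, separated them less, with 3865, 3529.5, 4667 and 4501 CPM in pDC and 446, 561, 297 and 535 in the others.

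**Figure D1:**
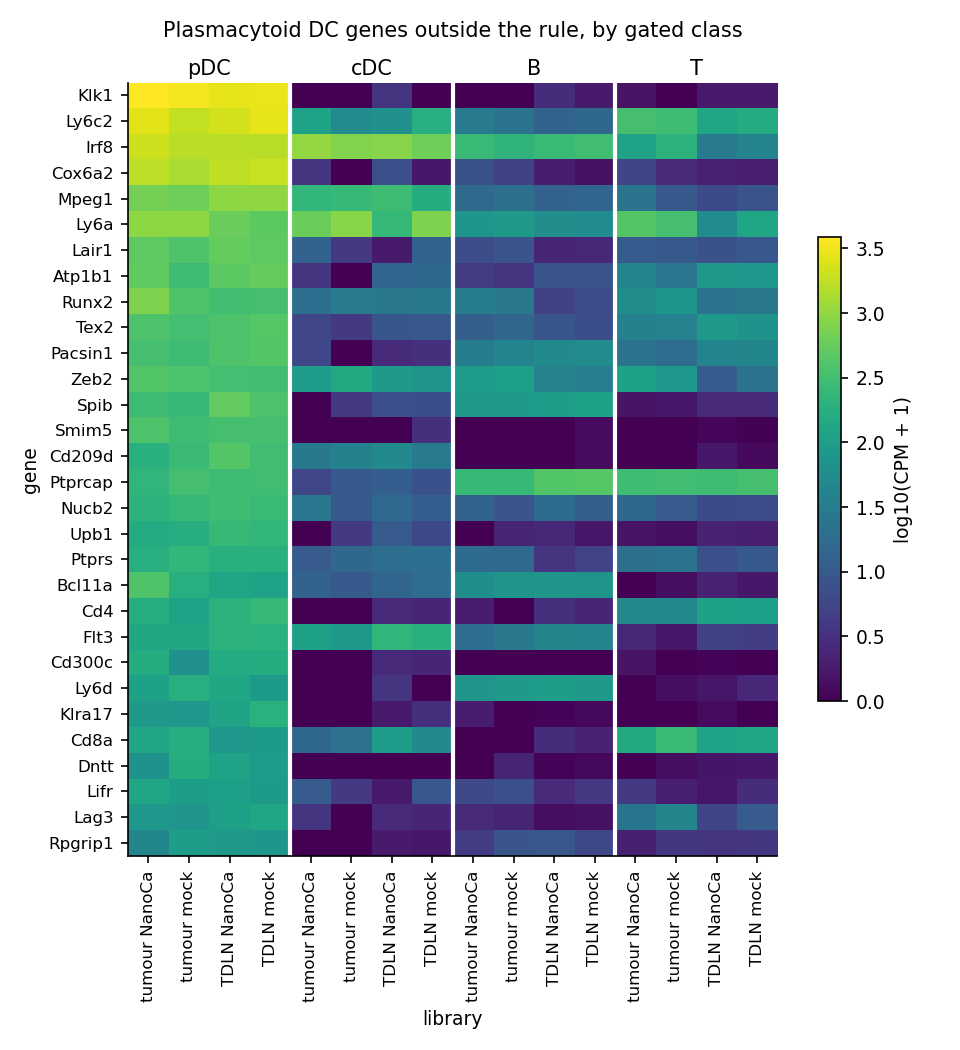
Heat map of log10(CPM + 1) of 30 pDC identity genes outside the rule (rows) in pDC, cDC, B cells and T cells of the 4 libraries (columns). Klk1, at 2793 to 3853 CPM in pDC and at most 2.46 CPM in cDC, is one of the sharpest rows. Others separate the classes less: Cd209d reaches 51.7 CPM in cDC of TDLN NanoCa, against 418 in pDC. Flt3 is itself part of the cDC gate.

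The edge of the rule was less clear than its centre in both tissues. At 1 UMI of Siglech, just outside, 7, 3, 8 and 5 barcodes met every other limit, with Klk1 at 1244, 564, 239 and 35.8 CPM. At 2 UMIs, just inside, 5, 1, 1 and 1 barcodes stood, with Klk1 at 2161, 2735, 0 and 345 CPM. Of the barcodes with at least 2 UMIs of Siglech, 18, 7, 29 and 27 were left out by another limit. In tumour NanoCa 12 of those 18 exceeded the limit on Rhox5, a gene of the CT26 carcinoma, and in TDLN NanoCa 19 of 29 exceeded that on Cd3. Nearly all barcodes left out also carried Klk1 or Cox6a2 (17 of 18, 7 of 7, 26 of 29 and 24 of 27), and their median depth was 12876 to 26513.5 UMIs. As likely doublets, the barcodes with the highest Scrublet scores were marked, up to a number preset by library size. These included 10, 3, 15 and 18 of the barcodes left out, and 4, 1, 2 and 8 of the members.

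Markers of other cell types were counted in the members, order as above. The T cell, B cell, carcinoma and macrophage lists include genes that the rule itself limits. These are Cd3d, Cd3e and Cd3g, Cd79a, Rhox5, and C1qa, C1qb and C1qc. Low sums of those lists are therefore in part set by the rule. Erythroid genes gave 0, 0, 2 and 4 UMIs, T cell genes 2, 0, 39 and 23, B cell genes 6, 1, 40 and 27, NK cell genes 1, 2, 9 and 32, and carcinoma genes 10, 4, 7 and 18. Fibroblast genes gave 18, 27, 13 and 19 UMIs and endothelial genes 21, 20, 56 and 47. Sums were larger where pDC express part of a list themselves. The plasma cell list gave 135, 78, 511 and 531 UMIs, nearly all Xbp1 and Mzb1, while Tnfrsf17 was at 0 in all 4 libraries. The cDC list gave 98, 44, 511 and 378 UMIs, with Xcr1 at 0 throughout. The last lists rested in part on single cells. The macrophage or monocyte list gave 325, 79, 513 and 349 UMIs, and 1 tumour NanoCa cell held 96 of 147 Lyz2 UMIs. The mature migratory DC list gave 19, 9, 311 and 498 UMIs, with up to 273 in 1 TDLN mock cell. The neutrophil list gave 2, 125, 4 and 0 UMIs, of which 124 lay in 1 tumour mock cell. For many ratios below that rest on such cells, the part of the highest cell or the ratio without it is given.

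To see how common pDC were, their share was taken of all kept barcodes and of those with a UMI of Ptprc, the gene of CD45. pDC made up 0.392% of kept barcodes in tumour NanoCa (exact Clopper-Pearson interval 0.285 to 0.526), 0.259% in tumour mock (0.166 to 0.385), 0.645% in TDLN NanoCa (0.504 to 0.813) and 0.653% in TDLN mock (0.506 to 0.828). The tumour share with NanoCa over mock was 0.60 on the log2 scale (−0.15 to 1.38), and the TDLN share −0.017 (−0.52 to 0.49), so both intervals hold a ratio of 1. Most tumour barcodes had no Ptprc UMI. Among those that did, pDC were 39 of 2455 (1.59%) in tumour NanoCa and 22 of 2383 (0.923%) in tumour mock, with a log2 ratio of 0.78 (−0.0068 to 1.61). In TDLN they were 70 of 9576 (0.731%) and 63 of 7814 (0.806%), with a log2 ratio of −0.14 (−0.65 to 0.37).

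The denominator decided how the tissues compared. Among kept barcodes the tumour share was below that of TDLN in both pairs, at log2 −1.34 (−2.07 to −0.64) for mock and −0.72 (−1.29 to −0.15) for NanoCa. Among Ptprc barcodes it was 0.20 (−0.58 to 0.92) for mock and 1.12 (0.52 to 1.70) for NanoCa, above TDLN beyond counting error in the NanoCa pair alone. Set against gated T cells, tumour pDC numbered 7.68 per 100 with NanoCa and 3.23 with mock, a log2 ratio of 1.25 (0.50 to 2.03). T cells themselves numbered 573 and 742 in those libraries. Set against B cells, the numbers were 11.6 and 9.41 per 100 (0.31, −0.44 to 1.09), so the tumour ratio depended on the class counted beside pDC.

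**Figure D2:**
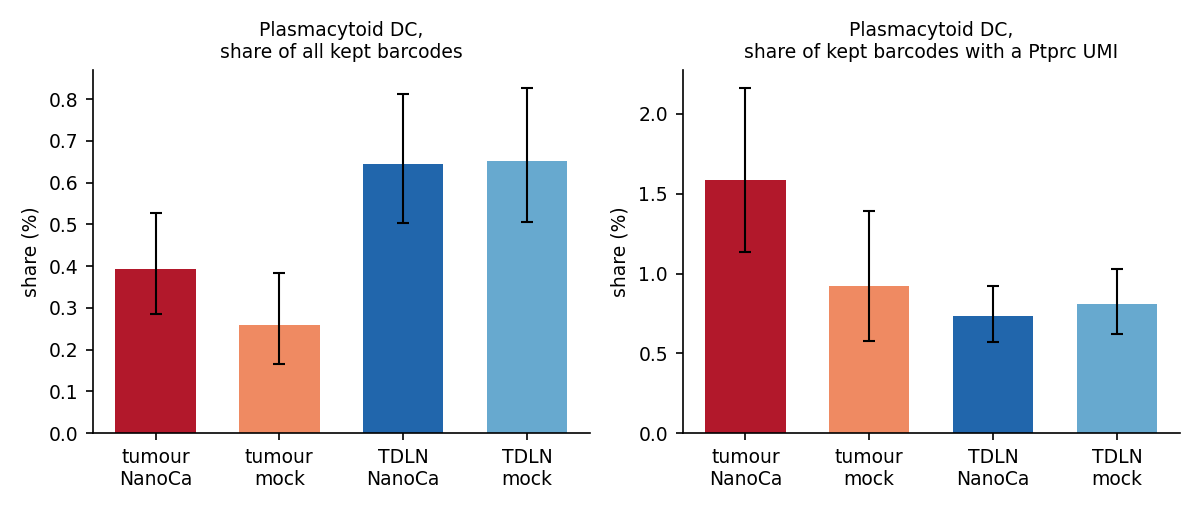
Share of pDC (%, y axis) in each library with exact Clopper-Pearson 95% intervals, among all kept barcodes (left) and among kept barcodes with a Ptprc UMI (right). The tumour bars stand at 0.392% and 0.259% on the left, below TDLN, and at 1.59% and 0.923% on the right, above TDLN, with intervals that overlap those of TDLN for mock.

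The wider contrast was between the tissues. Tumour pDC held less mRNA of MHC class II and of Ccr7 than TDLN pDC, and more of the inflammatory chemokines Ccl3, Ccl4 and Cxcl2, of Tnf, of Jun and Egr1, of the interferon-stimulated gene Isg15, and of the heat-shock genes Hspa1a and Hspa1b. A gene was called higher or lower past a 2-fold ratio of CPM, among genes with at least 30 UMIs over both libraries. Between tumour and TDLN with mock, 267 of 3487 genes (7.66%) were higher in the tumour and 401 (11.5%) lower, 19.2% in all. With NanoCa, 204 of 3890 (5.24%) were higher and 336 (8.64%) lower, 13.9% in all. The counts of list genes below are to be read against these shares. Of 3308 genes compared in both pairs, 64 were higher in each, which is 27.4% of the 234 higher with mock and 42.7% of the 150 higher with NanoCa, and 69 were lower in each, 18.8% of 367 and 25.1% of 275. TMM scaling, which moved the median of all genes from −0.096 to −0.30 with mock and from −0.052 to −0.24 with NanoCa, gave 181 higher and 578 lower, and 140 and 493. With the cell of the highest count left out of each gene's sum, 43 were still higher and 62 still lower in both pairs. That takes more from a library with fewer cells, and so moved the medians to −0.42 and −0.20. The pDC of the tissues also differed in depth, as given above, and in free RNA (RNA of other cells in the droplet). Over 7 carcinoma genes, the level in pDC was a median of 13.4% of that in the other barcodes in tumour NanoCa (6.06 to 26.4 by gene), 20.8% in tumour mock (6.87 to 71.4), 7.15% in TDLN NanoCa (3.65 to 9.06) and 4.35% in TDLN mock (0 to 10.4). An estimate by 4 other genes gave 21.0%, 0%, 4.14% and 4.08%, on 2, 0, 6 and 4 UMIs. The 2 estimates thus order the tumour libraries in opposite ways, and values with free RNA subtracted depend on the one used. The part of depth or free RNA in the ratios was not tested, except where a value with free RNA subtracted is given.

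Nucleic-acid sensing came first in the order of the pathway. Tlr7, the endosomal receptor of single-stranded RNA, was at 173 CPM in tumour NanoCa, 172 in tumour mock, 104 in TDLN NanoCa and 99.0 in TDLN mock. Tlr9, the receptor of CpG DNA, was at 37.1, 99.8, 48.3 and 31.2 CPM on 6 to 28 UMIs. Their chaperone gene Unc93b1 was at 606, 589.8, 830.4 and 819.9 CPM. No member of this trio passed 2-fold between tissues where it could be compared. Of 14 endosomal sensing genes compared with mock, Nfkb1 was higher in the tumour (log2 1.16, with 31 of 62 UMIs in 1 cell, and 0.27 without the highest cells) and 2 were lower. Of 16 compared with NanoCa none was higher and Chuk, Traf3 and Ikbkb were lower (−1.29, −1.23 and −1.01). Of all genes 11.5% were lower with mock and 8.64% with NanoCa. In the cytosolic branch Sting1, the adaptor that cyclic dinucleotides bind, stood at 124, 90.7, 32.8 and 60.5 CPM and was higher in the tumour with NanoCa (1.91, 0.93 to 2.90). Zbp1, a sensor of Z-form nucleic acid, was also higher there (1.84, 0.75 to 2.94). Cgas gave 0, 0, 1 and 2 UMIs, so the enzyme upstream of Sting1 was not measurable at this depth.

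Interferon itself was close to absent. Of 20 interferon ligand genes, 18 had no UMI in any pDC, which allows up to 6.82%, 12.5%, 4.23% and 4.48% of cells with a UMI, order as above. Ifnb1, the ligand named in the series title, gave 12 UMIs in 1 tumour NanoCa cell and 1 UMI in 1 tumour mock cell, and none in TDLN. The cell with 12 also held 189 Ccl4 UMIs and was marked as a doublet. Over all kept barcodes of those libraries Ifnb1 gave 68 UMIs in 12 barcodes and 50 in 34, so most of it lay outside pDC. Ifng gave 9 UMIs in 1 TDLN mock cell. The receptor chain genes Ifnar1 (334, 272, 394 and 453 CPM) and Ifnar2 (557, 535, 687 and 714) were present in every library and passed 2-fold in no comparison. Of the other receptor and signal transducer genes, Ifngr1 alone passed it between tissues, with 18.6, 90.7, 86.3 and 84.4 CPM and a log2 ratio of −2.22 (−4.54 to −0.59) on 3 tumour UMIs in the NanoCa pair.

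Interferon-stimulated genes were the targets that could be read. Isg15, a ubiquitin-like modifier, was at 402 CPM in tumour NanoCa, 363 in tumour mock, 164 in TDLN NanoCa and 53.2 in TDLN mock. Both tumour levels lay above both TDLN levels, with log2 ratios of 2.77 (2.04 to 3.51) for mock and 1.29 (0.82 to 1.76) for NanoCa. The NanoCa ratio was 0.61 with marked doublets removed. In tumour mock 15 of 40 Isg15 UMIs lay in the cell that held the neutrophil counts, which was marked as a doublet. In tumour NanoCa 18 of 65 lay in 1 other marked cell. Ifitm3, which blocks virus entry in endosomes, was at 656, 336, 173 and 132 CPM. Its ratio was 1.92 for NanoCa and 1.35 for mock, but no tumour mock count was left with free RNA subtracted by the 7 carcinoma genes (−1.21 against a floor of 3 counts), and the mock ratio was −0.16 with pDC taken from 1 UMI of Siglech. Irf7, the factor that drives interferon genes in pDC, was at 1163, 644, 637 and 372 CPM, with ratios of 0.79 for mock and 0.87 for NanoCa that stayed under 2-fold. Of 12 interferon-stimulated genes compared with mock, 4 were higher in the tumour and 1 lower, with a median log2 of 0.79 where that of all genes was −0.096. Of 18 compared with NanoCa, 8 were higher and none lower, with a median of 0.89 where that of all genes was −0.052. Xaf1 (1.40), Parp14 (1.67), Slfn5 (1.58) and Ifi203 (1.79) were among the 8. The medians were 0.94 and 0.98 with free RNA subtracted by the 7 carcinoma genes. In the same libraries cDC and T cells moved the same way, with medians of 0.58 and 0.78 in cDC and 1.04 and 0.66 in T cells. The direction was thus not seen in pDC alone. B cell medians are not given here. Each pDC thinned to 2000 UMIs gave a median of 8 interferon-stimulated UMIs in tumour NanoCa (1 to 39), 7 in tumour mock (1 to 44) and 3 in either TDLN library (0 to 38 and 0 to 33).

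The promoter of Isg15 is shown because it holds the repeat that interferon-activated factors are known to bind. Capitals mark GAAA, any 2 bases and GAAA, found in 3 overlapping copies that begin 78 bases before the start. The window is the 250 bases before the RefSeq start in GRCm38.p6, chr4:156200819-156201068, minus strand.
Isg15: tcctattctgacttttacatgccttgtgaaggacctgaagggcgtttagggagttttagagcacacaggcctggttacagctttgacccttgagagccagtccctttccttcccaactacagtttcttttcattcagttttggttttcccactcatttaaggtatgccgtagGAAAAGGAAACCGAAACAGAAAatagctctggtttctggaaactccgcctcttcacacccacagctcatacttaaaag
Searched on both strands, this motif stood in 17 of 46 windows of the interferon-stimulated list (37.0%) and in 2.98% of all 32841 windows. A match is a description of the letters and no evidence of binding.

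Chemokine and cytokine genes differed between tissues in both directions. Ccl4, a chemokine that pDC release on activation, was at 4645 CPM in tumour NanoCa, 10280.0 in tumour mock, 2072 in TDLN NanoCa and 3204 in TDLN mock. Both tumour levels exceeded both TDLN levels, with log2 ratios of 1.68 (1.57 to 1.79) for mock and 1.16 (1.03 to 1.30) for NanoCa. Ccl3, its neighbour in function, was at 297, 1034, 39.7 and 106 CPM (3.28 and 2.90), and Tnf at 489, 798, 89.8 and 51.4 CPM (3.96 and 2.44). Ccl4 was found in 30 of 44, 20 of 24, 53 of 71 and 59 of 67 pDC, and a few of them held much of the count. In tumour NanoCa 3 cells held 54.5% of Ccl4 UMIs and 67.7% of those of Tnf and Ccl3. The same parts were 47.6% and 57.4% in tumour mock, 46.3% and 54.7% in TDLN NanoCa, and 30.7% and 31.4% in TDLN mock. Of all genes 7.66% were higher and 11.5% lower with mock, and 5.24% and 8.64% with NanoCa. Of 10 cytokine genes compared with mock, 6 were higher in the tumour and 3 lower (median log2 2.08). Of 9 compared with NanoCa, 5 were higher and 1 lower (1.16). These medians over few genes were not stable: they were −0.69 and −0.67 with pDC taken from 1 UMI of Siglech, and −0.67 for NanoCa with marked doublets removed. Cxcl2, a neutrophil attractant, was at 816, 390.2, 6.91 and 20.2 CPM (4.27 and 6.89), but 118 of its 132 UMIs in tumour NanoCa lay in the cell that also held the Lyz2 counts. Without the highest cells the ratio was 3.81 with mock, and 14 UMIs stood against 0 with NanoCa. Ccl4 was also higher in the tumour in cDC (2.34 and 2.91), B cells (2.36 and 3.14) and T cells (4.05 and 4.72). Ccl5 and Ccl22 went the other way. Ccl5 was at 6.18, 18.1, 371 and 831 CPM, with 192 of 215 and 248 of 453 TDLN UMIs in 1 cell of each library. Without the highest cells its ratio was −5.37 with mock, and 0 UMIs stood against 23 with NanoCa. Ccl22 was at 0 UMIs in tumour mock and 97 in TDLN mock, 81 of them in 1 cell.

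Of the chemokine promoters, that of Cxcl2 is shown for its site of the NF-kappaB type, GGGA, any base and TTTCC, in capitals, 97 bases before the start (GRCm38.p6, chr5:90903649-90903898, plus strand).
Cxcl2: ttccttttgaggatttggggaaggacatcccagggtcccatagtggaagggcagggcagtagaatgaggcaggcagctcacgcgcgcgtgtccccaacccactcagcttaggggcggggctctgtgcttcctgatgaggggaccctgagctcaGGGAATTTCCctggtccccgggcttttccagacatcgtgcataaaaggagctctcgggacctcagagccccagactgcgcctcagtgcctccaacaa
This motif stood in 4 of 17 windows of the cytokine list (23.5%) and in 0.356% of all windows, both strands searched.

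MHC class II genes were lower in tumour pDC. H2-Aa, an alpha chain, was at 1954 CPM in tumour NanoCa, 2441 in tumour mock, 5737 in TDLN NanoCa and 5017 in TDLN mock. Both tumour levels lay below both TDLN levels, and the log2 ratios of tumour over TDLN were −1.04 (−1.23 to −0.86) for mock and −1.55 (−1.72 to −1.39) for NanoCa. The mock ratio fell short of 2-fold under 6 other settings, the least being −0.79 with free RNA subtracted by the carcinoma genes. The beta chain H2-Ab1 gave 1237, 1334, 3284 and 3470 CPM (−1.38 and −1.41). The invariant chain Cd74, which guards the peptide groove, gave 6191, 7358, 13582 and 12785 CPM, with ratios of −0.80 for mock and −1.13 for NanoCa. H2-Eb1 gave 1014, 1189, 2476 and 2333 CPM (−0.97 and −1.29) and H2-DMb2, a chain of the peptide exchanger, 148, 90.7, 311 and 224 (−1.30 and −1.07). Of all genes 11.5% were lower with mock and 8.64% with NanoCa. Of 9 MHC class II genes compared in each pair, none was higher, 3 were lower with mock (median log2 −0.80) and 5 with NanoCa (−1.07). With free RNA subtracted by the 7 carcinoma genes the medians were −0.54 and −0.88. In other gated cells the medians had no common direction: 0.87 and 0.41 in cDC, −0.27 and −0.85 in B cells, and 0.61 and −0.40 in T cells. The cDC gate itself required a fixed minimum count of H2-Aa, H2-Ab1 and Cd74, in cells that were shallower in the tumour. The cDC medians therefore depend on that gate and are not a free contrast to pDC. Among pDC thinned to equal depth, the median count of H2-Aa, H2-Ab1, H2-Eb1 and Cd74 together was 14 UMIs in tumour NanoCa (0 to 77), 27 in tumour mock (1 to 69), 49 in TDLN NanoCa (0 to 110) and 47 in TDLN mock (0 to 115). The ranges overlapped widely while the tumour medians lay below those of TDLN. Of 15 and 16 MHC class I genes compared, Tap1 alone passed 2-fold, higher in the tumour with NanoCa (1.84).

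The promoters of an alpha and a beta chain are shown for the Y box that MHC class II promoters share. Capitals mark CTGATTGG, 51 bases before the start of H2-Aa (GRCm38.p6, chr17:34287824-34288073, minus strand) and 62 before that of H2-Eb1 (chr17:34305617-34305866, plus strand).
H2-Aa: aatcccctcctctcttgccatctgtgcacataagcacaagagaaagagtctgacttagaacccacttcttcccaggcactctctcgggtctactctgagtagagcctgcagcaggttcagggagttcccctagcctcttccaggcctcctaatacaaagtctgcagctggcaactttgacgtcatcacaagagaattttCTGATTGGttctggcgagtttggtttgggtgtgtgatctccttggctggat
H2-Eb1: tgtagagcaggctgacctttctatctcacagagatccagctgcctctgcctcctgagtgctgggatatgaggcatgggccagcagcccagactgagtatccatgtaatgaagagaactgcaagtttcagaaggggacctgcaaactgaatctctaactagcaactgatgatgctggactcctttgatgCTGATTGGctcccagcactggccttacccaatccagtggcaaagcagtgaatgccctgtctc
The motif stood in 3 of 12 windows of the MHC class II list, those of H2-Aa, H2-Eb1 and H2-Oa, and in 3.83% of all windows. None of the printed windows holds a match to either of the other motifs.

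**Figure D3:**
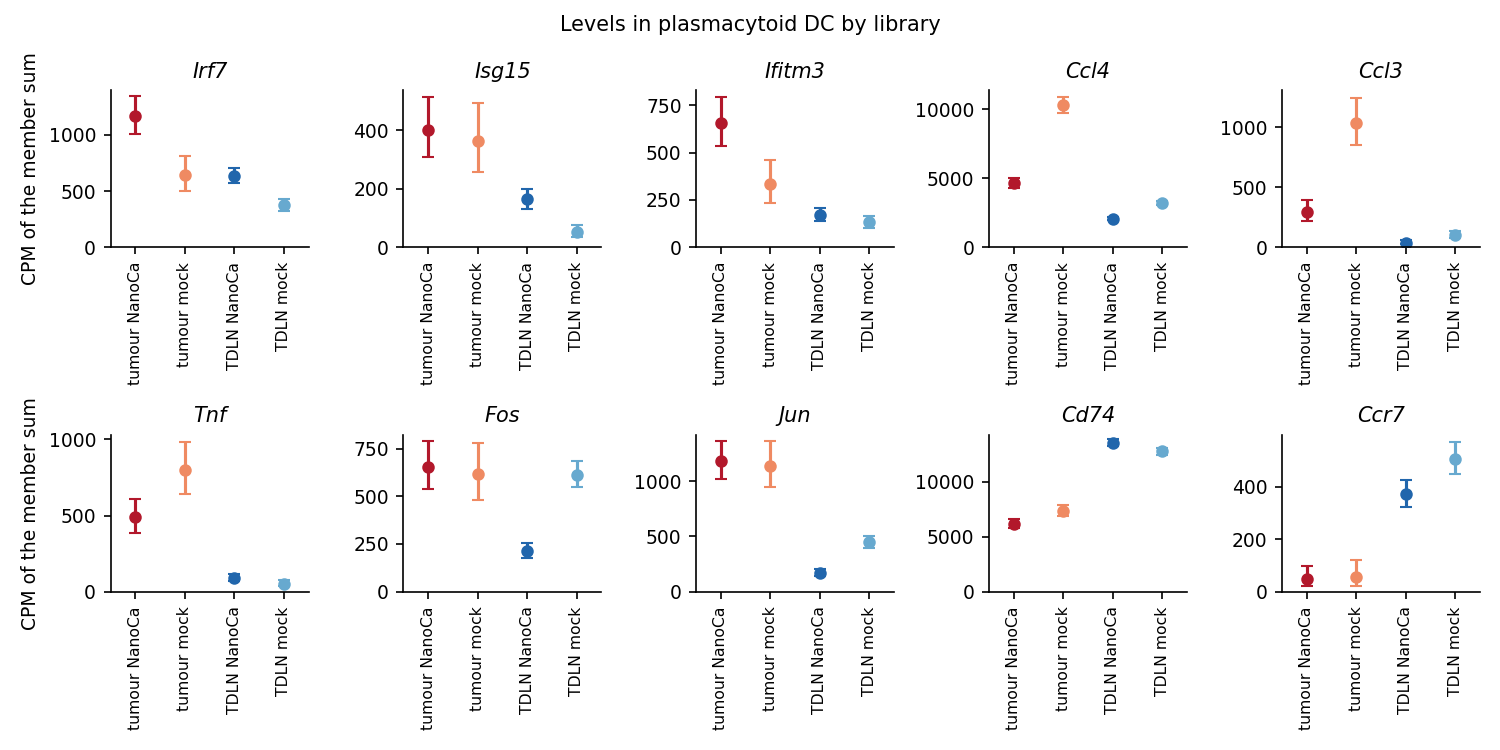
CPM in pDC (y axis, exact Poisson 95% intervals) of 10 genes in the 4 libraries. Isg15, Ifitm3, Ccl3, Ccl4, Tnf and Jun stand higher in both tumour libraries than in both TDLN libraries, and Cd74 and Ccr7 lower.

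Ccr7 was lower in the tumour, and with NanoCa so were 6 of 10 maturation genes, against 8.64% of all genes. Ccr7, the receptor that leads dendritic cells into the node, was at 49.5, 54.4, 371 and 506 CPM, with log2 ratios of −3.22 (−4.68 to −2.08) for mock and −2.91 (−4.14 to −1.90) for NanoCa. One cell of each TDLN library held 106 of 215 and 133 of 276 of its UMIs, and both carried Ccl5 and Fscn1 as well. Without the highest cells the ratios were −3.85 and −2.93, and with marked doublets removed the mock ratio was −1.65. Ccr7 was found in 4 of 44, 3 of 24, 31 of 71 and 25 of 67 pDC, and after thinning in 5.26%, 8.70%, 21.1% and 22.7%. Of 10 maturation genes compared with NanoCa, 6 were lower and none higher (median log2 −1.75), among them the NF-kappaB genes Nfkb2 (−2.10) and Relb (−1.73) and the surface ligand gene Cd200 (−1.82). Of 9 compared with mock, 4 were lower, against 11.5% of all genes, and 1, the adhesion gene Icam1, higher (1.10). The mock median was −0.75, and −0.023 with marked doublets removed. In cDC the medians were −2.26 for mock and −1.31 for NanoCa. Cd80 and Cd40, which costimulate T cells, gave at most 6 and 11 UMIs in any library.

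Activation and stress genes split by family. Jun was at 1181, 1143, 171 and 446 CPM, higher in the tumour in both pairs (1.36 with mock, 2.79 with NanoCa), and Egr1 at 297, 209, 53.5 and 73.4 CPM (1.51 and 2.47). Nr4a3, an orphan receptor gene induced by the same kinds of signal, went the other way with 111, 200, 506 and 444 CPM (−1.15 and −2.18). Of 18 and 19 immediate-early genes compared, 5 and 6 were higher and 2 and 4 lower, so the list had no common direction (medians 0.08 and 0.11). Among the genes called in both pairs with the highest cell left out were the heat-shock genes Hspa1a (433, 771, 104 and 108 CPM) and Hspa1b (482, 653, 72.5 and 84.4 CPM), with log2 ratios of 2.83 and 2.06 and of 2.95 and 2.73. They were carried by 8 to 15 tumour cells. The metallothionein gene Mt1 (2.37 and 2.88) and the secreted phosphoprotein gene Spp1 (2.74 and 3.99) were higher too, but with free RNA subtracted by the carcinoma genes no tumour mock count of Mt1 was left (−0.58 against the floor), and at most 3 counts of Spp1 in any library. Of 115 Spp1 UMIs in tumour NanoCa, 52 lay in the cell that held the Lyz2 counts. Lower in both pairs were Crem (−1.64 and −2.46) and Dennd4a (−1.08 and −1.40). These genes, Spp1 aside, were singled out after their values were seen.

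Many genes furthest above TDLN, by the interval bound nearest to 1, rested on single cells. With mock, S100a9 (at least 168-fold higher, against a floor of 3 counts in TDLN), Csf1 (6.52), Vcam1 (6.55), Zfpm2 (6.03), Lama2 (7.16) and Atxn1 (5.44) led. The highest tumour cell of each held 101 of 102, 67 of 74, 36 of 38, 49 of 53, 28 of 29 and 34 of 35 UMIs, all in the 18255-UMI cell described below except S100a9, which lay in another. With NanoCa the chemokine gene Cxcl3 (43 UMIs) and Lyz1 (50 UMIs) lay wholly in the tumour cell that held the Lyz2 counts, which was marked as a doublet, while the small heat-shock protein gene Hspb1 had 73 UMIs in 7 tumour cells and none in TDLN. Slit2, a secreted guidance ligand (5.48, with 27 of 50 UMIs in that cell), the chromatin protein gene Hmga2 (5.43, with 23 of 36) and Timp1, an inhibitor of metalloproteinases (4.22), were found in 13, 14 and 17 of 44 tumour pDC. With free RNA subtracted by the carcinoma genes, 3.84 of the 26 Timp1 UMIs were left.

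Of the lowest genes, most were carried by many TDLN pDC. With NanoCa, Vps37b, a subunit of the ESCRT-I sorting complex, was at 111 CPM in the tumour and 535 in TDLN (−2.27, −3.04 to −1.58), where 67 of 71 pDC had it. The anthrax toxin receptor gene Antxr2 was at 55.7 and 433 CPM (−2.96, in 61 of 71 TDLN pDC). The tubulin gene Tuba4a and the telomere protein gene Tinf2 were at 0 UMIs in the tumour and 64 and 48 in TDLN, at least 5.96-fold and 4.47-fold lower. Lsamp, an adhesion protein gene, had 1 UMI against 62 (−4.11, −9.44 to −1.58), and Clu had 91 of its 94 TDLN UMIs in 1 cell. With mock, the scaffold protein gene Grasp was at 72.6 and 457 CPM (−2.65, −3.88 to −1.65, in 46 of 67 TDLN pDC). The RNA-binding protein gene Hnrnpa0 had 1 UMI against 90 (−4.19, −9.50 to −1.67) and the ubiquitin ligase gene Rnf187 2 against 102 (−3.37, −6.43 to −1.48). Tmem160 (−4.51) and Taf10 (−3.14) were among the lowest with mock as well. Both belong to a list of 9 genes chosen because they were higher with NanoCa in each tumour class of these files. All 7 of its genes compared with mock were lower in the tumour (median log2 −3.14). Of 6 compared with NanoCa, 1 was higher and none lower (0.59), so this was not seen in both pairs. The list was picked in these files for tumour levels lower with mock than with NanoCa. A difference between the pairs was thus favoured in advance and is no separate result.

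Glycolysis genes were higher in the tumour with NanoCa and mostly not with mock. Eno1, Mif, Pkm and Pgk1 were among 8 of 14 higher with NanoCa (1.99, 1.70, 1.33 and 1.54), while Tpi1 alone of 12 was higher with mock (1.07, with no tumour mock count left when free RNA was subtracted by the carcinoma genes, −0.98 against the floor). Of 94 Eno1 UMIs in tumour NanoCa, 29 lay in the cell that held the Lyz2 counts. The list medians were 1.17 and 0.41, and 0.73 and 0.30 with the highest cell left out. The NanoCa median was 0.53 with pDC thinned to 2000 UMIs, and the mock one −0.12 with free RNA subtracted by the carcinoma genes. Whether the pairs differ was not tested. The transitional DC list, genes of cells between pDC and cDC, had S100a6, S100a10 and Anxa2 higher in both pairs (S100a6 at 2356, 2123, 830.4 and 972 CPM). Its median of 0.72 with mock and 1.32 with NanoCa became −0.58 and 0.16 with free RNA subtracted by the carcinoma genes. Of 30 identity genes, 1 was higher and 3 lower with mock and 2 higher and 1 lower with NanoCa, with medians of −0.15 and −0.12. The secretory list had 1 of 21 higher with mock and 1 higher and 4 lower with NanoCa, among them Dnajb9 (−1.90). Of homing genes, Cd69 was higher in both pairs (1.70 and 1.17). Calcium signalling genes had 3 higher and 3 lower of 13 with mock, and 1 and 3 of 17 with NanoCa, with no direction of their own. Of 4 interferon-gamma-induced genes compared in each pair, Tap1 alone passed 2-fold.

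**Figure D4:**
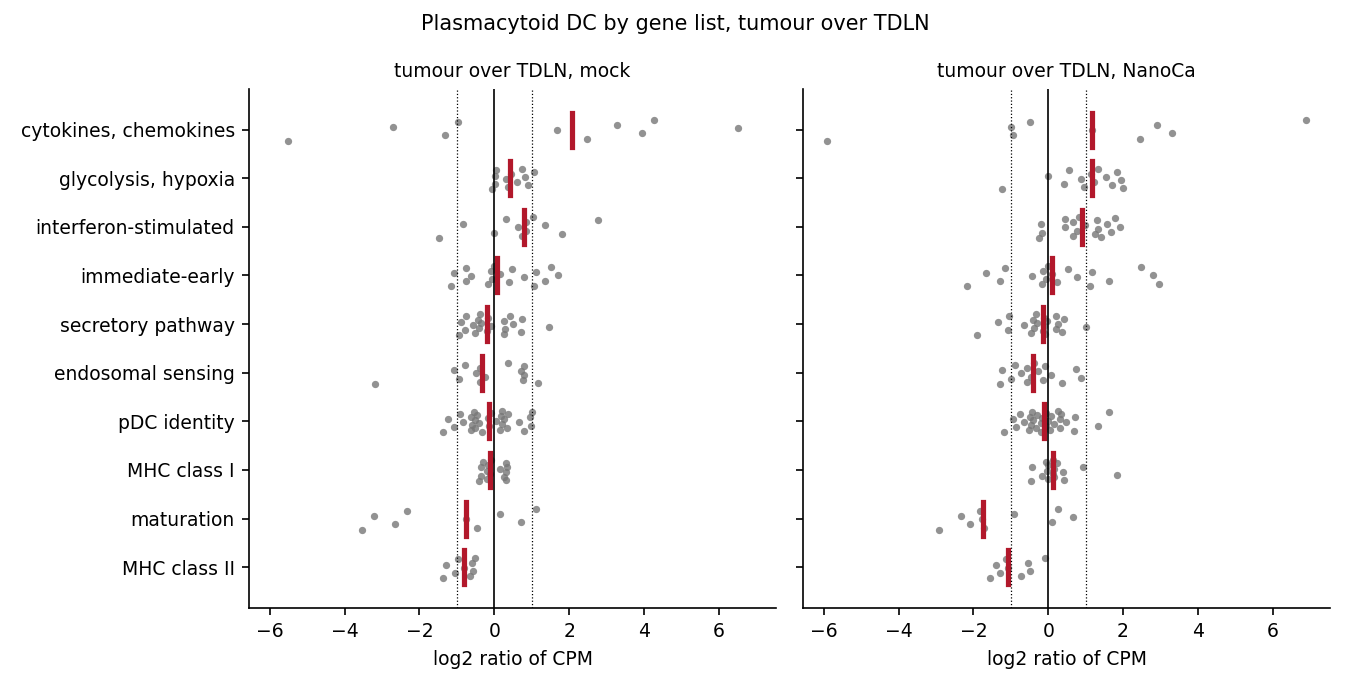
Log2 ratio of CPM in pDC, tumour over TDLN (x axis), for the compared genes of 10 lists (points), with the list median (red bar) and the 2-fold limits (dotted lines), mock on one panel and NanoCa on the other. The medians of cytokines (2.08 and 1.16) and interferon-stimulated genes (0.79 and 0.89) lie right of 0. Those of MHC class II (−0.80 and −1.07) and maturation (−0.75, or −0.023 with marked doublets removed, and −1.75) lie left of it. The cytokine medians were −0.69 and −0.67 with pDC taken from 1 UMI of Siglech, and −0.67 for NanoCa with marked doublets removed.

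To see what went with the treatment, NanoCa was set against mock within each tissue. In the tumour fewer genes could be compared, since the 2 libraries held 68 pDC together. Tumour pDC of NanoCa held less mRNA of Ccl3 and Ccl4 and more of the identity genes Runx2, Bcl11a and Cd300c, and no interferon-stimulated gene passed 2-fold. Of 1559 genes, 72 (4.62%) were higher with NanoCa and 64 (4.11%) lower, 8.72% in all. With the highest cell of each gene left out, which takes more from the 24 mock pDC than from the 44 of NanoCa, 67 of the 72 and 22 of the 64 were still called. Csf1 (67 of 74 mock UMIs), Vcam1 (36 of 38) and Lama2 (28 of 29) came from 1 tumour mock cell of 18255 UMIs, and their log2 ratios were −5.18, −5.80 and −4.41. S100a9 was at 0 UMIs with NanoCa and 102 with mock, of which 101 lay in 1 cell marked as a doublet. Cacnb2 (−3.17), Atxn1 (−2.68), Creb5 (−2.87) and Syne1 (−2.87) completed the lowest 8. On the higher side Lyz1 (5.09) and Ccl6 (2.53) rested on the 1 NanoCa cell named above, which also held 96 of 147 Lyz2 UMIs (2.56, and 1.42 without it), whereas Taf10 (2.62), Map2k2 (2.00), Cyb5r3 (2.00), Lrrk1 (2.25) and Hspb1 (1.55) kept a log2 ratio over 1 without their highest cell. Without theirs, S100a9, Vcam1, Lama2, Atxn1, Lyz1 and Ccl6 had at most 3 UMIs in either library, Cacnb2 stood at 0.18 and Creb5 at 4 UMIs against 0, while Csf1 (−2.36) and Syne1 (−1.55) stayed past 2-fold.

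Ccl4 in the tumour fell from 10280.0 CPM with mock to 4645 with NanoCa, a log2 ratio of −1.15 (−1.28 to −1.01), and Ccl3 from 1034 to 297 (−1.80, −2.32 to −1.30). Without the highest cell the ratios were −1.23 and −2.07, and Ccl4 stood at −0.83 with free RNA subtracted by 4 genes that gave 2 UMIs in NanoCa and 0 in mock pDC. After thinning, 87.0% of mock and 63.2% of NanoCa pDC had a Ccl4 UMI, with medians of 8 and 2 UMIs. Ccl4 gave log2 ratios of 0.19 in tumour cDC, 0.54 in B cells and −0.09 in T cells, none past 2-fold. Runx2 was at 792 CPM with NanoCa and 390.2 with mock (1.02, 0.51 to 1.55), Bcl11a at 389.6 and 182 (1.10, 0.36 to 1.91) and Cd300c at 167 and 63.5 (1.39, 0.16 to 2.84). The first pair are transcription factors that pDC require. With the pDC that lacked both Klk1 and Cox6a2 left out, Runx2 stood at 0.82 and Bcl11a at 0.61, both short of 2-fold. They were 3 of 26 identity genes compared, against 4.62% of all genes, and none was lower. The deepest tumour mock pDC held 18255 of the 110214 UMIs of the mock sum. Identity genes made up 0.389% of its UMIs, against a median of 1.48% in that library, so it lowers their mock levels. The deepest tumour NanoCa pDC held 13618 of 161688 UMIs, with 0.404% against a median of 1.85%. Irf7 reached 0.85 (0.45 to 1.27), above 1-fold beyond counting error but under the 2-fold limit, and the 9 interferon-stimulated genes had a median of 0.16. MHC class II genes had none called of 7 (median −0.11). Tap1, the peptide transporter of MHC class I, was the 1 called of 14 (1.34). The adhesion gene Cd44 (−1.24), the NF-kappaB gene Nfkb1 (−1.55, and −0.86 without the highest cells), Fosb (−1.03), Tnfaip3 (−1.15) and the glucose transporter gene Slc2a1 (−1.11) were lower.

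In TDLN the pDC of NanoCa held less mRNA of Fos, Jun and Ccl3, and no identity gene passed 2-fold. Their summed Isg15 was higher, with 47 of 95 UMIs in 1 cell. Of 5028 genes, 90 (1.79%) were higher with NanoCa and 87 (1.73%) lower, 3.52% in all, and 75 and 82 were still called without the highest cell. Fos was at 214 CPM with NanoCa and 614.5 with mock, a log2 ratio of −1.52 (−1.83 to −1.22), and Jun at 171 and 446 (−1.38, −1.73 to −1.04). In the tumour Fos was at 656 and 617 CPM and Jun at 1181 and 1143, so TDLN NanoCa was the low library of the 4. Fos gave −0.28 in TDLN cDC, 0.33 in B cells and 0.20 in T cells, and Jun −0.40, 0.25 and 0.02. Of 19 immediate-early genes 2 were lower, none was higher, and the median was −0.46. Ccl3 was lower with 39.7 against 106 CPM (−1.42, and −0.92 with each cell weighted equally), while Ccl4 at 2072 and 3204 CPM stayed under 2-fold (−0.63). Isg15 was higher, at 164 and 53.2 CPM (1.62, 1.01 to 2.28), but 47 of its 95 NanoCa UMIs lay in 1 cell (1.11 without the highest cell) and 9.86% of NanoCa and 10.6% of mock pDC had it after thinning. The cell with those 47 UMIs, the deepest of its library at 14861 UMIs, also held 145 of 160 Lyz2 UMIs. Phf11b (1.11) was the other interferon-stimulated gene called of 19, and the list median was 0.18. Irf7 gave 0.77 (0.52 to 1.03) in pDC, 1.05 in cDC, 1.23 in B cells and 0.81 in T cells. The tumour and TDLN ratios of Irf7 in pDC rest on separate libraries.

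The remaining calls in TDLN had few list members. Il12a, the interleukin 12 chain, was higher (1.46, on 35 and 12 UMIs), and Ccl5 (−1.16) and Ccl22 (−5.69) were lower, with 248 of 453 and 81 of 97 mock UMIs in the cell that held 133 Ccr7 UMIs (−3.24 and −4.09 without the highest cells). That cell was marked as a doublet, and Ccl5 turned to 3.45 with marked doublets removed. The calcium release channel gene Itpr2 was the 1 called of 19 calcium signalling genes (1.11). Of 30 identity genes, 18 endosomal sensing genes, 9 MHC class II genes and 22 secretory genes none passed 2-fold, with medians of 0.01, 0.19, 0.09 and 0.04. Hdac4 (1.95), Pde3b (1.45), Mkln1 (1.60) and Ezr (1.14) were higher in 28 to 51 cells of NanoCa, Ly6c1, a surface antigen gene that pDC carry, was at 516 and 262 CPM (0.98, under 2-fold), and Lyz2 (2.53) and Ebf1 (2.43) rested on 1 cell each. Lower were Ptp4a1 (−3.95), Tmem160 (−2.45), Slc25a28 (−2.59), Bag1 (−2.19), Bri3 (−1.59) and H2-M2 (−2.28, with at most 3 UMIs in either library without its highest cell). Ptp4a1 was also lower in the other TDLN classes (−2.79 in cDC, −2.44 in B cells and −2.43 in T cells), and Tmem160, Bri3 and Glrx5 (−1.55) belong to a list of 9 genes that had been chosen because they were higher with NanoCa in each tumour class of these files. In that list Taf10 stood at 223 CPM in tumour NanoCa, 36.3 in tumour mock, 171 in TDLN NanoCa and 319 in TDLN mock.

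Cells within 1 library differed widely. After thinning, 24 of 38 tumour NanoCa pDC had a Ccl4 UMI and 9 had at least 10, while in tumour mock 20 of 23 had one and 10 had at least 10. In TDLN 35 of 71 and 48 of 66 had one. MHC class II counts reached at least 10 UMIs in 21 of 38 and 20 of 23 tumour pDC, and in 65 of 71 and 61 of 66 TDLN pDC. The proliferation genes Mki67 and Top2a were found in few, with 12, 8, 10 and 10 pDC holding a UMI.

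**Figure D5:**
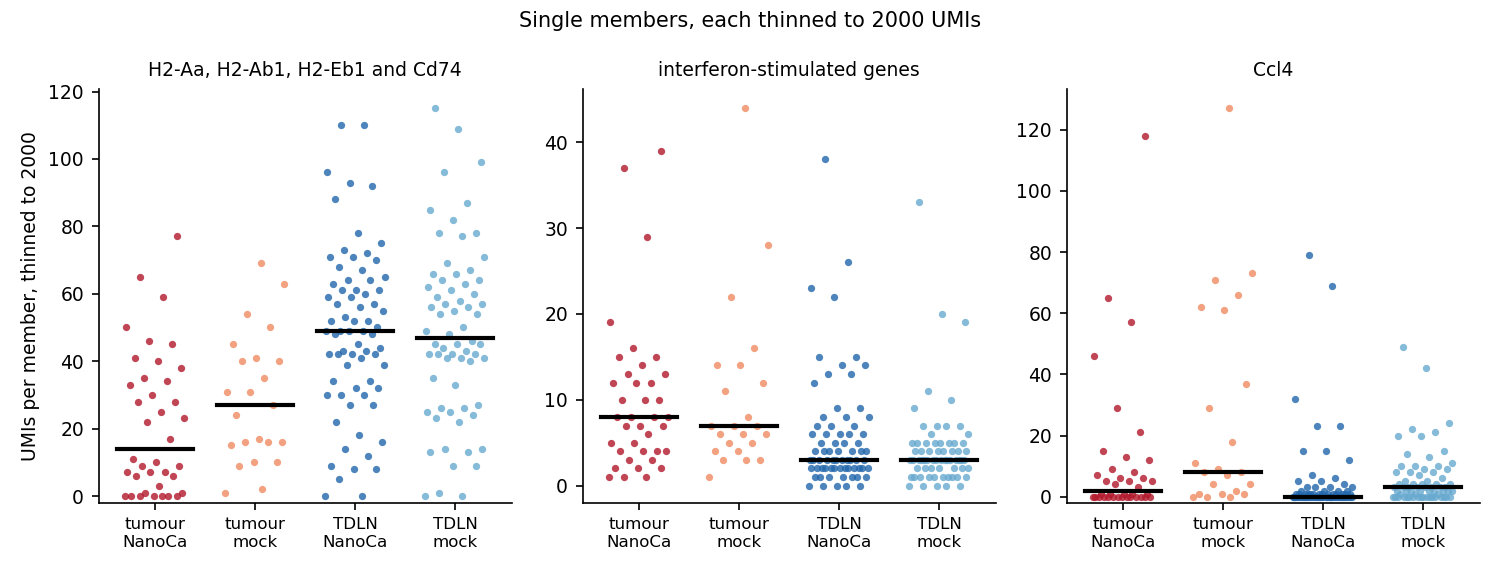
UMIs per pDC after thinning to 2000 UMIs (y axis), 1 point per cell and a line at the median, for 4 MHC class II genes together, interferon-stimulated genes together and Ccl4, by library. MHC class II medians are 14 and 27 in the tumour and 49 and 47 in TDLN, and Ccl4 is spread from 0 to 127 UMIs within tumour mock alone.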

How the data were processed

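The authors deposited unnormalized UMI counts for 31253 genes in the barcodes of each of 4 libraries, made with Cell Ranger 7.1.0, per the file headers. Per the labels' protocols, cells were stained for CD45, sorted and made into 10x 3' v2 libraries. The genome build was not given in the sources used here. Promoters were taken by symbol from RefSeq (GRCm38.p6), separately from the counts.

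Here pDC were taken by the rule given with the results. The cDC, B cells and T cells beside them had no Siglech UMI and were also gated on their RNA. Minimum counts were set on Flt3, Zbtb46, Xcr1, Clec9a and Cd209a together and on H2-Aa, H2-Ab1 and Cd74 together for cDC. For B cells they were set on Cd79a and Ms4a1, and for T cells on Cd3d, Cd3e and Cd3g. The UMIs of each class were handled as those of pDC. UMIs were summed per library, and genes with at least 30 UMIs over 2 libraries were compared. A gene at 0 was set against 3 counts, and no ratio was given where both libraries held 3 or fewer. Levels carry exact Poisson intervals, shares exact Clopper-Pearson intervals, and ratios exact conditional binomial intervals. With 1 library per group no comparison was tested.

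Described genes were chosen as the 8 highest and 8 lowest of each comparison by the interval bound nearest to 1, with at least 50 CPM in a library, and from 20 gene lists, up to 3 members each way. Genes outside this rule are named for their role or singled out after their values were seen. The members and lists, with 13 marker lists, were chosen with earlier results of these data known. Free RNA was estimated from 4 genes (Krt8, Krt18, Trac and Ms4a1) against the whole library, and again from 7 carcinoma genes (Hbegf, Fosl1, Npdc1, Oaf, Nupr1, Rpl39l and Ereg) against the other kept barcodes. Marked doublets were the barcodes with the highest Scrublet scores (scanpy 1.11.5), at a rate preset by library size, 7.42% to 8.97% of kept barcodes. They were removed as an alternative only. Other alternatives changed the Siglech and count limits, the scaling (edgeR 4.0.16 for TMM), the cells used and free RNA. Calculations used Python 3.11.15, numpy 2.4.6, scipy 1.17.1 and pandas 2.3.3, and were checked on simulated data.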

Additional observations from a re-analysis of the deposited data

Results flagged for a closer look

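Anp32b, which encodes a histone-binding acidic protein, went opposite ways in the tissues. In tumour pDC it was at 204 CPM with NanoCa (33 UMIs) and 81.7 with mock (9 UMIs), a log2 ratio of 1.32 (0.23 to 2.57). In TDLN pDC it was at 79.4 and 172 CPM, a log2 ratio of −1.12 (−1.66 to −0.59). It passed 2-fold in both tissues in opposite directions, and the difference between the tissues was not tested.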

How the results depend on the processing

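No paired analysis was possible because each group held 1 library. All 16 alternative values of the pDC share ratios stayed within the counting interval of the reported value. The counts of genes past 2-fold moved with the count limit. Counts are given as higher and lower for tumour, TDLN, tissues with mock and tissues with NanoCa in turn. At 10 UMIs they were 525 and 467, 459 and 451, 958 and 967, and 845 and 803, and at 100 UMIs 5 and 7, 8 and 19, 27 and 77, and 40 and 89. Thinned to 2000 UMIs per cell, with fewer genes compared, they were 19 and 22, 22 and 33, 50 and 97, and 56 and 106. In the tumour, subtracting free RNA gave 112 and 100, and 135 were higher with the 7-gene estimate. With the highest cell of each gene left out, 140 and 25 were called in the tumour, 109 and 759 between tissues with mock, and 548 lower with NanoCa. Without pDC over 2 times the median UMIs, 25 were lower in the tumour and 142 higher between tissues with mock. Alternatives added after the data were seen are those on the highest cell, on Klk1 and Cox6a2, on UMIs over 2 times the median, and on the 7 genes. Leaving out the highest cell turned Cacnb2 (0.18) in the tumour and Lyz2 (−0.77) in TDLN, and left 3 UMIs or fewer in both libraries, hence no ratio, for genes such as Lyz1, Ebf1 and Clu. The 7-gene subtraction left no tumour mock count of Ifitm3 (−1.21 against the floor), Mt1 (−0.58) or Tpi1 (−0.98). Taking pDC from 1 UMI of Siglech turned Ifitm3 (−0.16) and, in TDLN, Ccl5 (0.21), which stood at 3.45 without doublets. The cytokine median turned to −0.69 with mock and −0.67 with NanoCa from 1 UMI of Siglech, and with NanoCa to −0.48 at 10 UMIs and −0.67 without doublets. The transitional DC median with NanoCa turned to −0.59 with free RNA subtracted. Beyond the construction of each alternative the cause was not tested. With 24 to 71 pDC per library, a gene without a UMI may still have one in up to 4.23% to 12.5% of such cells.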
